A study of Arabidopsis thaliana with 16 samples.

Results

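The EDF genes of Arabidopsis thaliana are the 4 loci TEM1 (EDF1, AT1G25560), RAV2 (TEM2 or EDF2, AT1G68840), EDF3 (AT3G25730) and RAV1 (EDF4, AT1G13260). They were chosen by locus identifier, with earlier results of these data known, as 4 of the 33518 loci counted in root RNA. Each was counted on 1 transcript model. All 4 were among the 22304 loci that passed the filter on low counts. Roots came from seedlings grown for 6 d and then left untreated or exposed to ethylene at 10 ppm for 4 h. Wild-type Col-0 was compared with 3 mutants, the double mutants ein3eil1 and rhd6rsl1 and the quadruple mutant ein3eil1rhd6rsl1. Each of the 8 groups had 2 replicates, described by the submitters as biological. The sources used here give neither the alleles nor the number of plants per replicate. The study asked how EIN3/EIL1 and RHD6/RSL1 act together in root hair growth under ethylene.

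RAV proteins carry an AP2 domain and a B3 domain, each of which contacts DNA. RAV1 was the first of them described and reads a bipartite element, with the AP2 domain on CAACA and the B3 domain on CACCTG. TEM1 and RAV2, the TEMPRANILLO pair, repress the florigen gene FT and the gibberellin biosynthesis genes GA3OX1 and GA3OX2 and so delay flowering. RAV1 is known as a regulator of growth, germination and leaf senescence. The name EDF stands for ethylene response DNA binding factor, since ethylene raises these transcripts through EIN3 and EIL1, the transcription factors that ethylene stabilises. RHD6 and RSL1 are basic helix-loop-helix factors that start root hair formation.

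In the TAIR10.1 annotation, TEM1 lies on the minus strand at chr1:8981556-8983314 and RAV2 on the plus strand at chr1:25880155-25882222. EDF3 lies on the plus strand at chr3:9396272-9397766 and RAV1 on the plus strand at chr1:4542168-4543970. TEM1, EDF3 and RAV1 each have 1 annotated transcript with 1 exon, and RAV2 has 2, of 1 and 2 exons. No annotated gene overlaps any of the 4 loci, although AT3G25740 begins or ends 17 bases from EDF3. The coding sequences are close relatives. EDF3 and RAV1 share 82.3% of aligned coding bases and TEM1 and RAV2 80.7%, and the other 4 pairs share 74.3 to 76.6%. The longest identical coding stretches within the closest pairs are shown with the members that share them.
EDF3 and RAV1: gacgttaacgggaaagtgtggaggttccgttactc
TEM1 and RAV2: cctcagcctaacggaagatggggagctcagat
These runs are 35 and 32 bases long, and the reads were 100 bases long. Of the 987, 960, 903 and 936 windows of 100 bases in the coding sequences of TEM1, RAV2, EDF3 and RAV1, 0 occurred exactly in another member. Parts of the models outside the coding sequences were not searched. The sources used here do not say how the authors counted reads that match more than 1 gene.

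The 250 bases before each annotated start are shown because EIN3 binds DNA around ATGTA. Capitals mark ATGTA or its reverse complement TACAT, and each sequence runs from 5′ to 3′ on the strand of its gene. The windows are TEM1 at chr1:8983315-8983564, RAV2 at chr1:25879905-25880154, EDF3 at chr3:9396022-9396271 and RAV1 at chr1:4541918-4542167, all in RefSeq's copy of TAIR10.1.
TEM1: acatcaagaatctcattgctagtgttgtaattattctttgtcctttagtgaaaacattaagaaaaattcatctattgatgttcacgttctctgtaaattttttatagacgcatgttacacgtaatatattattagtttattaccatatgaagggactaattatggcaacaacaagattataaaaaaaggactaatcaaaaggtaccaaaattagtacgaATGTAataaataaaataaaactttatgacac
RAV2: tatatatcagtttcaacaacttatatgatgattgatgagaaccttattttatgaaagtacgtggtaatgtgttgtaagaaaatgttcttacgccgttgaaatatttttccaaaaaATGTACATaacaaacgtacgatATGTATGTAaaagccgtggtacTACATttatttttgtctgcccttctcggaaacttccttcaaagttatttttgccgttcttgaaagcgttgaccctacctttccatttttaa
EDF3: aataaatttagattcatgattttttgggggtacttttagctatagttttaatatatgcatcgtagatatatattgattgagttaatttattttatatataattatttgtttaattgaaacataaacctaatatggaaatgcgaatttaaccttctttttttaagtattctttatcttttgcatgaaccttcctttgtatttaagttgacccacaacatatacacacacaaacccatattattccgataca
RAV1: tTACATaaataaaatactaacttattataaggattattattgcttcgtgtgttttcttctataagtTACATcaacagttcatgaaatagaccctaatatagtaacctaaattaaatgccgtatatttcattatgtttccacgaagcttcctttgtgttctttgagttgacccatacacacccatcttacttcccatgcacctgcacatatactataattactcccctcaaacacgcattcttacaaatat
Both strands were searched. The RAV2 window held ATGTA 5 times, with some matches overlapping, the RAV1 window 2 times, the TEM1 window 1 time, at -31 to -27 from the start, and the EDF3 window 0 times. Of 27443 windows of the same length before annotated protein-coding genes, 52.0% held ATGTA. The longer form ATGTAC was present in the RAV2 window alone among the 4, as 1 palindromic site at -135 to -128, and 9.52% of all windows held it. The RAV1 half-site CAACA occurred 3 times before TEM1, 2 times before RAV2 and 1 time each before EDF3 and RAV1, against 47.4% of all windows. CACCTG, the other half-site, occurred 1 time, before RAV1 itself, against 2.57% of all windows. GCCGCC, the core read by ethylene response factors, was in none of the 4 windows and in 1.87% of all. A match describes the letters of these windows and shows no binding.

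Libraries held 33.0 to 45.0 M counted reads (M is 1000000), of which 512 to 3094 fell on TEM1, 599 to 1749 on RAV2, 263 to 2189 on EDF3 and 935 to 2576 on RAV1. The 2 replicates of a group correlated at 0.984 to 0.992 on log CPM (counts per 1000000 reads of the scaled library size). EIN3 was at 148 to 185 CPM in the 8 libraries with intact EIN3 and at 28.7 to 41.6 CPM in the 8 mutant libraries, and EIL1 at 61.3 to 75.6 against 12 to 29.7 CPM. RHD6 was at 14.2 to 24.2 CPM where intact and at 6.48 to 15.6 CPM where mutant, and RSL1 at 1.09 to 5.93 against 1.24 to 2.04 CPM. The overlap came from the ethylene-treated libraries of Col-0 and rhd6rsl1. RHD6 was at 14.2 and 15.7 CPM in treated Col-0 and at 14.8 and 15.6 CPM in treated rhd6rsl1, and RSL1 at 1.09 and 1.75 against 1.75 and 1.24 CPM. Neither targeted gene therefore separated the libraries labelled Col-0 and rhd6rsl1 under ethylene. Directions that compare those libraries rest on the labels, as do the separate ethylene responses of Col-0 and rhd6rsl1 and their EIN3/EIL1 dependence. The 6 root markers summed to 276 to 478 CPM, and none was at 0. The 12 photosynthesis and shoot markers summed to 879 CPM in Col-0 with ethylene replicate 1 and to 1460 CPM in ein3eil1rhd6rsl1 with ethylene replicate 1, and to 180 to 344 CPM in the other 14 libraries. The names of the deposited files also carry a letter, S or Z, which the sources used here do not explain. S marks untreated rhd6rsl1, untreated ein3eil1rhd6rsl1 and Col-0 and ein3eil1 with ethylene, so within 1 genotype the letter and the treatment cannot be told apart. In whole roots, fewer cells of a type and less RNA per cell cannot be told apart either.

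TEM1, whose product represses flowering, was, per length, the highest of the 4 genes in ethylene-treated Col-0. It was at 21.1 and 20.3 CPM in untreated Col-0 and at 77.4 and 77.2 CPM after ethylene. In rhd6rsl1 it was at 28.6 and 22.3 CPM untreated and at 61.02 and 64.1 CPM after ethylene. In both genotypes the treated libraries stood above the untreated ones with no overlap. In ein3eil1 the values were 15.6 and 13.9 CPM untreated and 18.7 and 20.5 CPM with ethylene, and in ein3eil1rhd6rsl1 they were 17.1 and 24.9 CPM untreated and 18.1 and 18.9 CPM with ethylene. Over the 8 group means TEM1 spanned 5.23-fold. Treated Col-0, treated rhd6rsl1 and untreated rhd6rsl1 came first in that order, and untreated ein3eil1 came last. Neighbours in the order from untreated rhd6rsl1 down to treated ein3eil1rhd6rsl1 overlapped in their ranges.

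EDF3, a RAV gene with a less studied product, was, per length, the least abundant member in untreated roots of every genotype and gave the widest span of the 4, 6.02-fold over the group means. It was at 9.22 and 13.8 CPM in untreated Col-0 and at 53.1 and 54.6 CPM after ethylene. In rhd6rsl1 it went from 17.0 and 16.8 CPM to 45.6 and 55.9 CPM. The treated libraries of these genotypes overlapped each other and lay above all others. In ein3eil1 it was at 10.4 and 9.91 CPM untreated and at 12.5 and 12.3 CPM with ethylene. In ein3eil1rhd6rsl1 it was at 8.95 and 8.86 CPM untreated and at 7.62 and 10.4 CPM with ethylene. Below untreated rhd6rsl1, which came next, each neighbouring pair of the remaining 5 groups overlapped.

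RAV2, the other TEMPRANILLO gene, spanned 2.37-fold. It was at 20.2 and 22.7 CPM in untreated Col-0 and at 41.6 and 43.6 CPM after ethylene. In rhd6rsl1 it was at 28.9 and 29.4 CPM untreated and at 34.1 and 36.0 CPM with ethylene. The treated libraries were above the untreated ones in both genotypes, by less in rhd6rsl1. Without EIN3 and EIL1 the treated libraries were the lower ones. The values were 23.7 and 19.7 CPM untreated and 19.3 and 16.9 CPM treated in ein3eil1, and 21.7 and 25.6 CPM untreated and 17.9 CPM in both treated libraries of ein3eil1rhd6rsl1. Treated ein3eil1 and treated ein3eil1rhd6rsl1 were the lowest groups and overlapped each other.

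RAV1 was, per length, the most abundant member in untreated roots of every genotype and had the narrowest span, 2.19-fold. It was at 32.2 and 33.3 CPM in untreated Col-0 and at 52.6 and 48.5 CPM after ethylene. In rhd6rsl1 it was at 63.0 and 59.3 CPM untreated and at 54.0 and 61 CPM treated, and the groups overlapped. In ein3eil1 it was at 28.4 and 27.4 CPM untreated and at 33.0 and 32.6 CPM treated. In ein3eil1rhd6rsl1 it was at 45.9 and 44.7 CPM untreated and at 39.5 and 41.0 CPM treated. Both rhd6rsl1 groups headed the order, treated Col-0 and both ein3eil1rhd6rsl1 groups followed, and the remaining Col-0 and ein3eil1 groups came last. Within each treatment and EIN3/EIL1 genotype, RAV1 was higher where RHD6 and RSL1 were mutant.

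**Figure D1:**
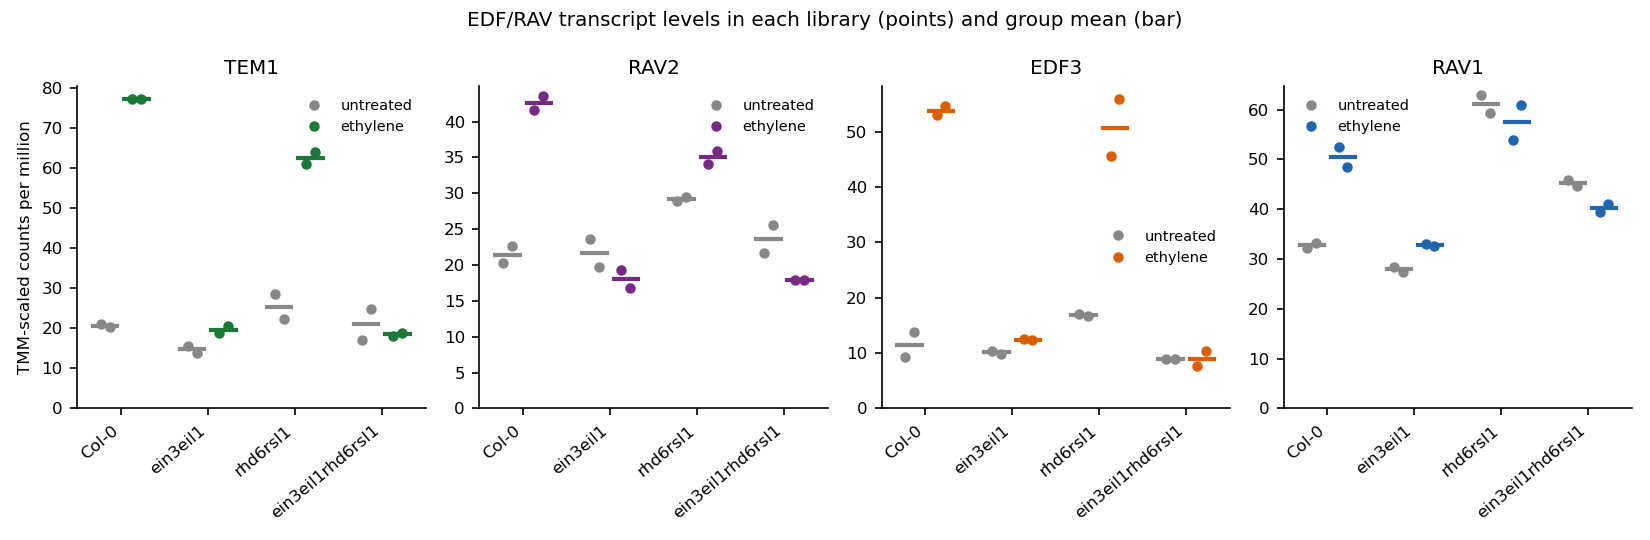
Level of each EDF gene in the 8 groups, in CPM on a linear axis, with a point for each of the 2 libraries and a bar for the group mean. TEM1 reached 77.4 CPM and EDF3 54.6 CPM in ethylene-treated Col-0, whereas RAV1 was highest in rhd6rsl1 with and without ethylene, at 54.0 to 63.0 CPM.

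In Col-0 all 4 genes rose with ethylene, against 13.7% of all loci tested that were called higher and 29.6% called in either direction. EDF3 rose from 11.5 ± 3.25 to 53.8 ± 1.10 CPM (SD, n = 2), a log2 fold change of 2.23 ± 0.16 (SE), which is 4.68-fold (edgeR quasi-likelihood F test with Benjamini-Hochberg adjustment, adjusted p = 9.6e-09). TEM1 rose from 20.7 ± 0.622 to 77.3 ± 0.137 CPM, by 1.90 ± 0.14 on the log2 scale or 3.73-fold (adjusted p = 1.9e-08). RAV2 rose by 0.99 ± 0.11, or 1.98-fold (adjusted p = 1.9e-06), and RAV1 by 0.63 ± 0.083, or 1.54-fold (adjusted p = 1.9e-05). Of all loci tested, 1.55% had a larger fold change than EDF3, 2.03% a larger one than TEM1, 5.67% a larger one than RAV2 and 10.2% a larger one than RAV1. The median log2 fold change of the 4 genes was 1.44, beside 0.01 over all loci tested.

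In rhd6rsl1, with EIN3 and EIL1 intact, 2 of the 4 genes rose, against 18.0% of all loci tested called higher and 39.5% called in either direction. EDF3 rose by 1.59 ± 0.15, or 3.0-fold (adjusted p = 3e-07), and TEM1 by 1.30 ± 0.14, or 2.46-fold (adjusted p = 1.1e-06). RAV2 was 0.26 ± 0.11 higher on the log2 scale and did not pass the test (adjusted p = 0.058). It passed the threshold under 7 alternative settings, with adjusted p from 0.018 to 0.045. The removal of any 1 of 9 libraries also brought it past the threshold, but none of these was an rhd6rsl1 library. Their removal changes only the spread, filter and scaling shared by all groups. RAV1 was at -0.09 ± 0.082 (adjusted p = 0.42). In this genotype the letter in the file names runs the opposite way to Col-0, with S on the untreated libraries. TEM1 and EDF3 rose in both, whereas RAV1 was higher in the S libraries of all 4 genotypes, by 0.62 in Col-0, 0.23 in ein3eil1, 0.09 in rhd6rsl1 and 0.17 in ein3eil1rhd6rsl1 on the log2 scale. The part of whatever the letter stands for in the RAV1 values was not tested. Averaged over Col-0 and rhd6rsl1, where an additive difference between S and Z cancels, all 4 genes rose with ethylene, against 18.9% of loci called higher and 41.3% called in either direction. The averages were 1.91 ± 0.11 for EDF3 (adjusted p = 2.3e-10), 1.60 ± 0.099 for TEM1 (6.4e-10), 0.63 ± 0.076 for RAV2 (3.1e-06) and 0.27 ± 0.058 for RAV1 (0.0013).

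In ein3eil1, 0 of the 4 genes were called after ethylene by edgeR, against 0.623% of all loci tested. Unadjusted p-values were below 0.05 for 3 of them, and DESeq2 called 0. TEM1 was at 0.41 ± 0.15 (adjusted p = 0.19), EDF3 at 0.29 ± 0.16 (0.44), RAV1 at 0.23 ± 0.085 (0.21) and RAV2 at -0.26 ± 0.11 (0.29). TEM1 passed the threshold under 2 alternatives, with adjusted p = 0.019 without a filter on low counts and 0.027 with the 2 groups fitted alone. In ein3eil1rhd6rsl1, RAV2 fell with ethylene, from 23.6 ± 2.71 to 17.9 ± 0.0106 CPM, by 0.40 ± 0.11 on the log2 scale (adjusted p = 0.015). It was 1 of 4, against 12.4% of all loci tested called lower and 23.9% called in either direction. This call was lost without either treated library (adjusted p = 0.066 and 0.069) or without untreated replicate 2 (0.14). The treated replicate 1 is a library high in photosynthesis transcripts. TEM1 was at -0.18 ± 0.14 (adjusted p = 0.38) and passed the threshold without untreated replicate 1, at -0.46 with adjusted p = 0.015. EDF3 was at 0.02 ± 0.17 (0.96) and RAV1 at -0.17 ± 0.083 (0.15). Averaged over both genotypes that lack EIN3 and EIL1, RAV2 was at -0.33 ± 0.078 (adjusted p = 0.019), against 4.57% of loci called lower and 7.89% called in either direction. That call was lost without either treated ein3eil1 library (adjusted p = 0.051 and 0.07), untreated ein3eil1 replicate 1 (0.11), untreated ein3eil1rhd6rsl1 replicate 2 (0.084) or its treated replicate 2 (0.058). TEM1, EDF3 and RAV1 averaged 0.12 ± 0.10, 0.15 ± 0.12 and 0.03 ± 0.059 there, with adjusted p of 0.52, 0.45 and 0.79.

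**Figure D2:**
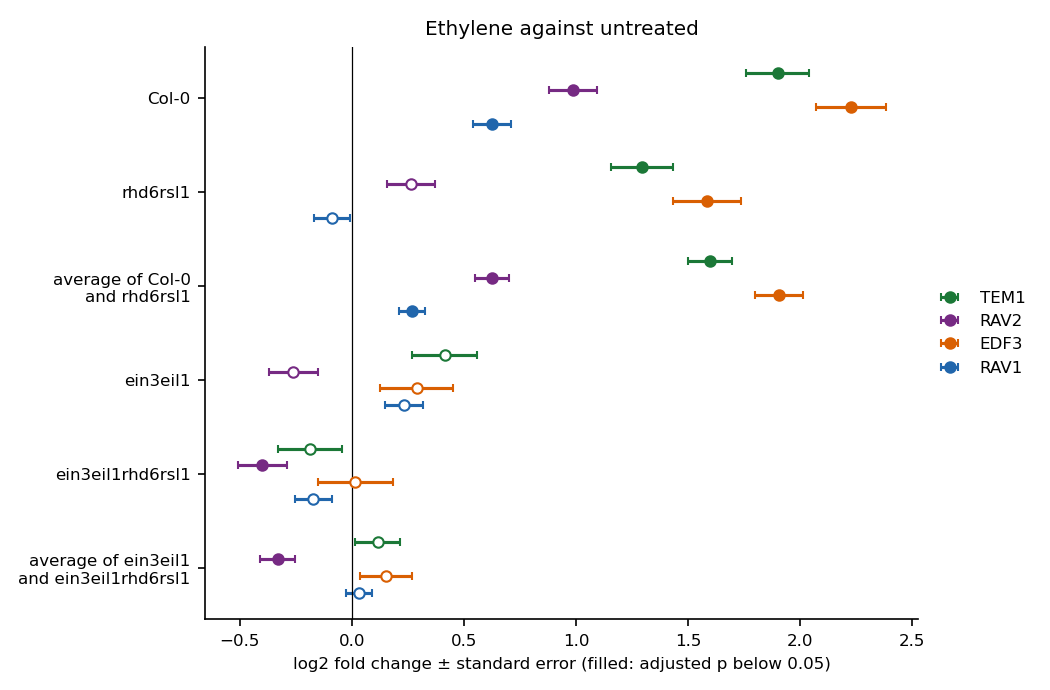
Log2 fold change after ethylene of each EDF gene in the 4 genotypes and in their averages, with error bars for the SE from edgeR and filled points at adjusted p below 0.05. EDF3 and TEM1 were at 2.23 and 1.90 in Col-0 and at 1.59 and 1.30 in rhd6rsl1, and the 4 genes lay between -0.40 and 0.41 in the genotypes without EIN3 and EIL1.

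The dependence of the ethylene response on EIN3/EIL1 was tested as the response with these genes minus the response without them. In the Col-0 background all 4 genes had a positive difference, against 4.58% of all loci tested and 12.2% called in either direction. It was 1.94 ± 0.22 for EDF3 (adjusted p = 1.1e-05), 1.49 ± 0.20 for TEM1 (6.3e-05), 1.25 ± 0.15 for RAV2 (2.4e-05) and 0.39 ± 0.12 for RAV1 (0.038). The RAV1 call was lost when any of 7 of the 8 libraries compared was left out, with adjusted p from 0.065 to 0.11. It was also lost without both libraries high in photosynthesis transcripts, where the difference was 0.35 (adjusted p = 0.14). In the rhd6rsl1 background 3 of 4 genes had a positive difference, against 6.89% of loci and 17.8% in either direction. EDF3 was at 1.57 ± 0.22 (adjusted p = 8e-05), TEM1 at 1.48 ± 0.20 (4.1e-05), RAV2 at 0.66 ± 0.15 (0.0054) and RAV1 at 0.08 ± 0.12 (0.68). The difference between these 2 dependences was called for 0 of the 4 genes by edgeR, against 0.305% of all loci tested. DESeq2 also called 0, and the unadjusted p was below 0.05 for 1, RAV2, at 0.59 ± 0.22 (adjusted p = 0.66). TEM1 was at 0.00 ± 0.28, EDF3 at 0.37 ± 0.32 and RAV1 at 0.31 ± 0.17. For RAV2 and RAV1, a smaller EIN3/EIL1 dependence in the rhd6rsl1 background was thus not shown.

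The same groups gave the mutant comparisons, which share their libraries with the ethylene comparisons above and lie within 1 letter of the file names. With ethylene, all 4 genes were lower in ein3eil1 than in Col-0, against 11.2% of all loci tested and 25.3% called in either direction. The log2 differences were -2.12 ± 0.16 for EDF3 (adjusted p = 1.4e-08), -1.98 ± 0.14 for TEM1 (1e-08), -1.24 ± 0.11 for RAV2 (1.5e-07) and -0.62 ± 0.083 for RAV1 (1.9e-05). All 4 were also lower in ein3eil1rhd6rsl1 than in rhd6rsl1 with ethylene, against 13.1% of loci and 31.0% in either direction. EDF3 was at -2.49 ± 0.16 (adjusted p = 1.8e-09), TEM1 at -1.76 ± 0.14 (3.2e-08), RAV2 at -0.97 ± 0.11 (2.1e-06) and RAV1 at -0.51 ± 0.083 (0.00011).

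In untreated roots the loss of EIN3 and EIL1 moved fewer of the genes past the threshold. Between untreated ein3eil1 and Col-0, 0 of 4 were called by edgeR, against 5.63% of all loci tested, with 2 at an unadjusted p below 0.05 and 1 called by DESeq2. TEM1 was at -0.49 ± 0.14 (adjusted p = 0.058), and the DESeq2 value was -0.50 (0.022). RAV1 was at -0.23 ± 0.084 (0.14), EDF3 at -0.18 ± 0.16 (0.63) and RAV2 at 0.01 ± 0.11 (0.97). Between untreated ein3eil1rhd6rsl1 and rhd6rsl1, EDF3 and RAV1 were lower, 2 of 4 against 2.37% of loci called lower and 4.33% called in either direction. EDF3 was at 8.90 ± 0.0636 against 16.9 ± 0.174 CPM, a log2 difference of -0.92 ± 0.16 (adjusted p = 0.0019). RAV1 was at 45.3 ± 0.838 against 61.2 ± 2.58 CPM, a difference of -0.43 ± 0.082 (adjusted p = 0.0041), which was lost without untreated rhd6rsl1 replicate 1 (0.073). RAV2 and TEM1 were at -0.30 ± 0.11 (0.13) and -0.28 ± 0.14 (0.29). TEM1 passed the threshold there without untreated ein3eil1rhd6rsl1 replicate 2, at -0.57 with adjusted p = 0.032.

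RAV1 was higher where RHD6 and RSL1 were mutant. Averaged over both treatments it was 0.54 ± 0.058 higher on the log2 scale in rhd6rsl1 than in Col-0, or 1.46-fold (adjusted p = 1.8e-06). It was 0.50 ± 0.059 higher in ein3eil1rhd6rsl1 than in ein3eil1, or 1.41-fold (adjusted p = 8.3e-06). An additive difference between S and Z libraries cancels in both averages. The first average includes the treated libraries labelled Col-0 and rhd6rsl1, which RHD6 and RSL1 did not separate. In untreated libraries, which they did separate, RAV1 was at 32.2 and 33.3 CPM in Col-0 and at 63.0 and 59.3 CPM in rhd6rsl1. These untreated libraries carry Z in Col-0 and S in rhd6rsl1, so genotype and letter cannot be told apart in them. The other genes were not called in either comparison. TEM1 was at 0.00 ± 0.097 and 0.21 ± 0.10, RAV2 at 0.08 ± 0.075 and 0.06 ± 0.078, and EDF3 at 0.23 ± 0.11 and -0.33 ± 0.12. The count of 1 in 4 stood beside 10.8% of loci called higher and 22.3% called in either direction in the first comparison, and 11.7% and 22.6% in the second, so the count itself was near the background. EDF3 missed the threshold in the second (adjusted p = 0.054) and passed it under 6 alternatives and without any 1 of 5 libraries, with adjusted p from 0.002 to 0.047. TEM1 passed it in the second without 1 of the libraries, with adjusted p = 0.0087, and EDF3 in the first without 1 library, with adjusted p = 0.011.

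**Figure D3:**
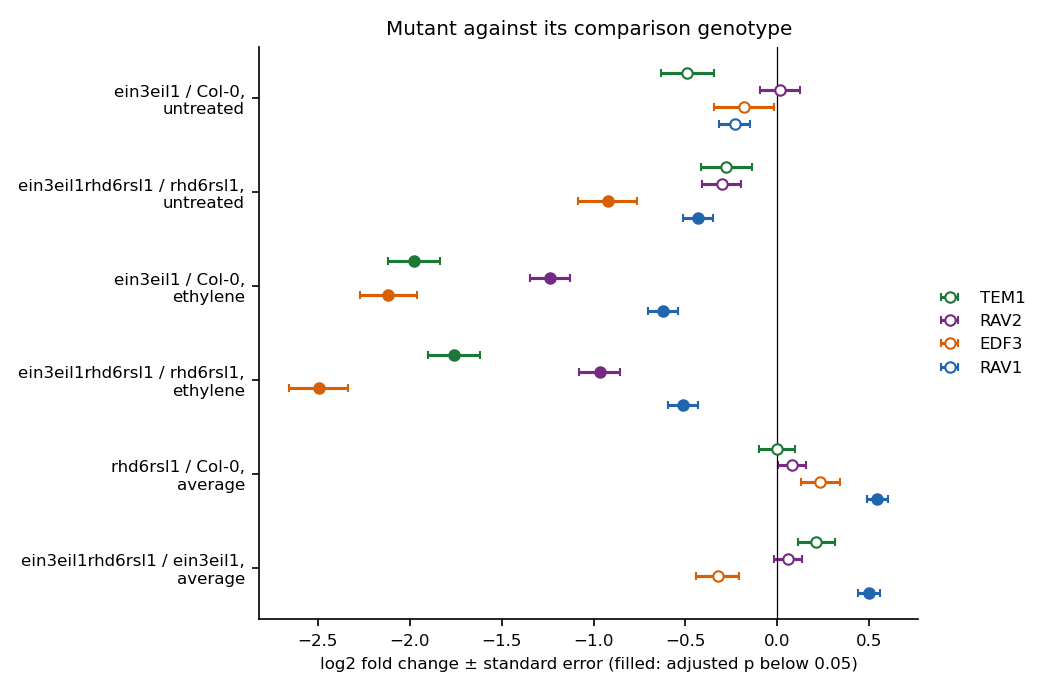
Log2 difference of each EDF gene between genotypes, with error bars for the SE from edgeR and filled points at adjusted p below 0.05. Averaged over treatments, RAV1 was higher without RHD6 and RSL1 by 0.54 with EIN3/EIL1 and by 0.50 without them. EDF3 under ethylene was at -2.12 and -2.49 where EIN3/EIL1 were mutant.

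To compare the genes with each other, the CPM values were divided by the length that the files give for each model. These file lengths were 1364 bases for TEM1, 1409 for RAV2, 1327 for EDF3 and 1574 for RAV1. The summed level of the 4 genes went from 59.9 ± 3.7 to 159.6 ± 0.1 CPM per kb (SD, n = 2) with ethylene in Col-0 and from 90.9 ± 4.8 to 145.5 ± 11.1 CPM per kb in rhd6rsl1. It was 51.6 ± 3.6 and 57.4 ± 0.5 CPM per kb without and with ethylene in ein3eil1, and 67.7 ± 5.4 and 58.6 ± 2.6 CPM per kb in ein3eil1rhd6rsl1. The make-up of the sum also differed between the groups. RAV1 made up 33.8 to 35.7% of it in untreated Col-0 and 19.3 to 20.9% after ethylene, and in rhd6rsl1 42.4 to 43.1% and then 24.9 to 25.3%. EDF3 went from 12.1 to 16.7% untreated to 25.1 to 25.8% treated in Col-0, and from 13.6 to 14.4% to 25.0 to 27.5% in rhd6rsl1. TEM1 became the largest part, at 35.5% in both treated Col-0 libraries and 30.6 to 32.5% in treated rhd6rsl1. RAV1 stayed the largest part in ein3eil1 and ein3eil1rhd6rsl1 under ethylene, at 36.3 to 36.4% and 43.1 to 44.2%.

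**Figure D4:**
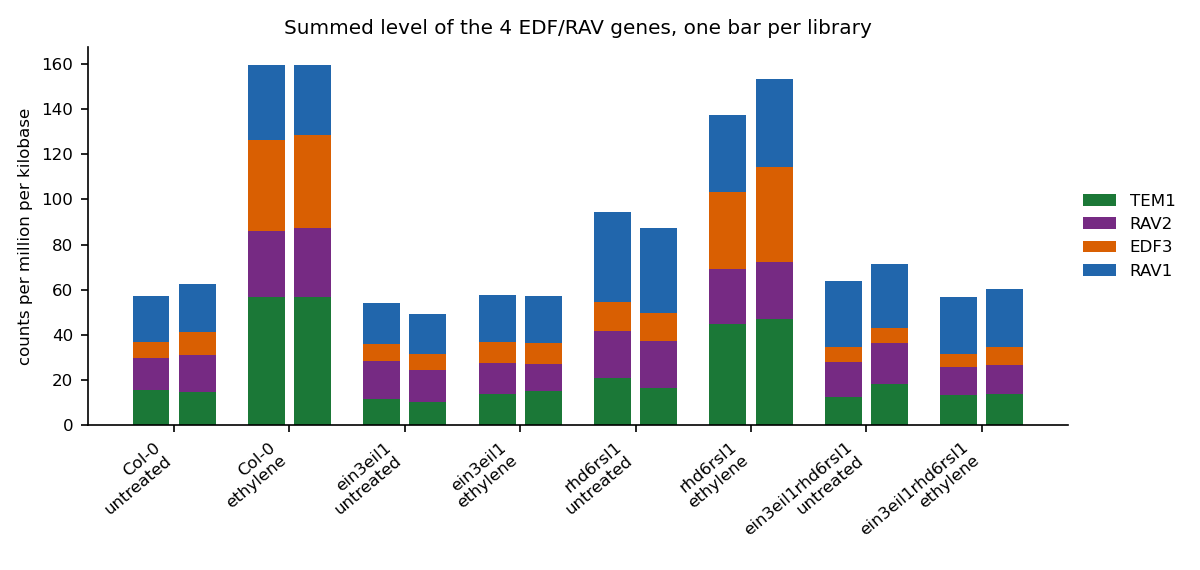
Summed level of the 4 EDF genes per library in CPM per kb of file length, stacked by gene from an axis that starts at 0. Ethylene-treated Col-0 summed to 159.6 CPM per kb on average and treated ein3eil1 to 57.4, and the TEM1 and EDF3 segments took up most of the difference.

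Ratios between the genes within a library do not depend on how libraries are scaled. They were compared between the 4 treated and the 4 untreated libraries of Col-0 and rhd6rsl1, with a two-sided exact permutation test that kept the genotypes apart. This comparison was chosen after the data had been seen. It has 36 arrangements, so the smallest p it can give is 0.056, and none of its 6 pairs could pass 0.05. The log2 ratio of EDF3 to RAV1 per length was -1.45 ± 0.288 untreated and 0.20 ± 0.179 treated (SD, n = 4). Each SD here is taken over both genotypes and includes the difference between them, which the permutation within genotype leaves out. The ratio of TEM1 to RAV1 was -0.76 ± 0.374 and 0.58 ± 0.29, and that of TEM1 to RAV2 -0.08 ± 0.205 and 0.90 ± 0.033. The ratio of RAV2 to EDF3 was 0.77 ± 0.189 and -0.52 ± 0.141. These 4 ratios and that of RAV2 to RAV1, at -0.68 ± 0.272 and -0.32 ± 0.283, each gave the smallest p (exact permutation p = 0.056, adjusted p = 0.067). The ratio of TEM1 to EDF3, at 0.69 ± 0.343 and 0.38 ± 0.154, gave an exact permutation p of 0.17.

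The group pattern of each gene was set beside those of 15543 loci with a mean of at least 5 CPM, by the root mean square difference of centred log2 CPM over the 8 group means. The 3 loci most like TEM1 were the sulfotransferase gene ST2A (AT5G07010) at 0.166, AT1G75388 at 0.183 and AT4G27280 at 0.187. EDF3 was nearest to the tandem zinc finger gene OZF2 (AT4G29190) at 0.124, the type-A response regulator gene ARR3 (AT1G59940) at 0.177 and bZIP44 (AT1G75390) at 0.2. The RAV2 pattern was nearest to CCR1 (AT3G09780), a relative of the receptor kinase gene CRINKLY4, at 0.119, the selenium-binding protein gene SBP1 (AT4G14030) at 0.121 and AT1G69840 at 0.124. RAV1 was nearest to the sulfate transporter gene SULTR1;2 (AT1G78000) at 0.125, the wall-associated kinase-like gene WAKL6 (AT1G16110) at 0.129 and the phosphatase gene PFA-DSP1 (AT1G05000) at 0.133. Among the members themselves TEM1 and EDF3 were closest, at 0.282, then RAV2 and RAV1 at 0.305, and EDF3 and RAV1 were farthest apart, at 0.821. TEM1 was the locus at place 11 in the order for EDF3, and EDF3 at place 46 in the order for TEM1. The closest pair by pattern was therefore not the closest pair by coding sequence.

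Relatives of the EDF genes were read from lists chosen, like the genes themselves, with earlier results of these data known. The remaining genes with both an AP2 and a B3 domain, AT1G50680 and AT1G51120, had 0 to 4 and 0 to 2 reads per group and did not pass the filter on low counts. Of 7 NGATHA and NGATHA-like genes, which share the B3 domain and act in leaf and flower development, 4 passed it. Of these, 2 rose with ethylene in Col-0, where 13.7% of all loci tested were called higher, and 2 in rhd6rsl1, where 18.0% were. The NGATHA-like gene NGAL1 (AT2G36080) rose from 25.5 ± 0.67 to 52.4 ± 1.6 CPM in Col-0, by 1.04 ± 0.11 (adjusted p = 1.3e-06). In rhd6rsl1 it rose from 21.7 ± 0.34 to 72.6 ± 1.8 CPM, by 1.75 ± 0.11 (adjusted p = 1.8e-09). In ein3eil1 it was at 13.2 ± 2.0 and 11 ± 1.4 CPM without and with ethylene, so that it was lower than in Col-0 also when untreated, by -0.96 ± 0.11 (adjusted p = 5e-05). Its dependence on EIN3/EIL1 was 1.30 ± 0.16 in the Col-0 background and 1.45 ± 0.16 in the rhd6rsl1 background (adjusted p = 2.6e-05 and 4.9e-06). NGAL2 (AT3G11580) rose by 0.58 ± 0.18 and 0.52 ± 0.18 (adjusted p = 0.022 and 0.032).

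Of 11 genes reported as targets of TEM proteins or RAV1, 6 passed the filter. FT, GL1, GIS, GIS2 and ABI4 did not. In Col-0 with ethylene 3 of the 6 fell and 0 rose, against 15.9% of all loci tested called lower, with a median of -0.41 beside 0.01 over all loci. The flowering gene SOC1 (AT2G45660) fell from 2.44 ± 0.45 to 1.21 ± 0.30 CPM, by 1.01 ± 0.33 (adjusted p = 0.03). The gibberellin 3-oxidase genes GA3OX1 (AT1G15550) and GA3OX2 (AT1G80340) fell by 0.45 ± 0.12 (adjusted p = 0.0068) and 0.54 ± 0.17 (0.021). In rhd6rsl1 1 of the 6 rose and 1 fell, against 18.0% and 21.5% of all loci. GA3OX2 fell by 0.59 ± 0.17 (adjusted p = 0.012), while GA3OX1 rose by 0.50 ± 0.11 (0.002), from 30.0 ± 0.73 to 42.4 ± 7.6 CPM. In ein3eil1 0 of the 6 were called, against 0.623% of all loci tested. In ein3eil1rhd6rsl1 3 of the 6 rose, against 11.5% of all loci. GA3OX1 rose by 0.63 ± 0.11 (adjusted p = 0.00088) and GA3OX2 by 0.67 ± 0.16 (0.0062). The trichome gene ZFP8 (AT2G41940) was also called there, on 24 and 2 reads after ethylene and 0 before, with the 24 in the replicate high in photosynthesis transcripts. GA3OX2 depended negatively on EIN3/EIL1 in the rhd6rsl1 background, at -1.26 ± 0.24 (adjusted p = 0.00099), and was not called in the Col-0 background, at -0.50 ± 0.23 (0.21). GA3OX1 was higher without RHD6 and RSL1, by 0.64 ± 0.081 with EIN3/EIL1 and 0.60 ± 0.081 without (adjusted p = 1.3e-05 and 3.4e-05). With ethylene GA3OX1 was at -0.45 in Col-0, -0.35 in ein3eil1, 0.50 in rhd6rsl1 and 0.63 in ein3eil1rhd6rsl1. It was thus lower in the S libraries of every genotype. Averaged over Col-0 and rhd6rsl1, where an additive difference between S and Z cancels, its response was 0.02 ± 0.08 (adjusted p = 0.85). Over ein3eil1 and ein3eil1rhd6rsl1 it was 0.14 ± 0.081 (0.3). The part of the letter in the GA3OX1 values was not tested.

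Other ethylene-responsive genes were read for reference. Of 9 ethylene-responsive transcription factor genes outside the EDF group, 5 rose in Col-0, 5 in rhd6rsl1 and 0 in ein3eil1, with medians of 2.42, 1.84 and -0.21. Over all loci tested, 13.7%, 18.0% and 0.26% were called higher. In ein3eil1rhd6rsl1 2 of the 9 rose, ERF6 by 0.34 ± 0.095 and ERF104 by 0.35 ± 0.12, and 1 fell, ERF4 by 0.47 ± 0.12, against 11.5% of loci called higher and 12.4% called lower. ERF1 (AT3G23240), a direct EIN3 target, rose by 5.17 ± 0.45 in Col-0 and 5.02 ± 0.42 in rhd6rsl1, and the defence regulator gene ORA59 (AT1G06160) by 3.46 ± 0.26 and 1.84 ± 0.23. Of 14 ethylene signalling and feedback genes, 12 rose in Col-0, against the same 13.7%, and in rhd6rsl1 9 rose and 1 fell, against 18.0% and 21.5%. In ein3eil1 0 rose and 2 fell, against 0.26% and 0.363%, the F-box genes EBF1 (AT2G25490) by 0.80 ± 0.082 (adjusted p = 0.00016) and EBF2 (AT5G25350) by 0.48 ± 0.11 (0.048). These genes, whose products remove EIN3, also fell in ein3eil1rhd6rsl1, by 0.35 ± 0.081 (adjusted p = 0.005) and 0.84 ± 0.11 (8.3e-05). In ein3eil1rhd6rsl1 4 of the 14 fell in all and 2 rose, the feedback gene ARGOS (AT3G59900) by 1.01 ± 0.26 (adjusted p = 0.01) and the exoribonuclease gene EIN5 (AT1G54490) by 0.48 ± 0.11 (0.0047).

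TEM genes cycle with the day, and the sources used here give no harvest times, so 9 circadian clock genes were read beside them. In Col-0 LUX rose and CCA1, LHY and PRR9 fell with ethylene. LHY (AT1G01060), a morning gene, fell by 1.08 ± 0.14 there (adjusted p = 1.4e-05) and was at -0.05 ± 0.14 in rhd6rsl1 (0.8). In rhd6rsl1 0 rose and 4 fell, in ein3eil1 0 were called, and in ein3eil1rhd6rsl1 1 rose and 2 fell. The shares of all loci called in either direction were 29.6% in Col-0, 39.5% in rhd6rsl1, 0.623% in ein3eil1 and 23.9% in ein3eil1rhd6rsl1. LUX was at 0.41 in Col-0 and 0.33 in ein3eil1, and at -0.22 in rhd6rsl1 and -0.27 in ein3eil1rhd6rsl1. LUX and ELF4 were thus higher in the S libraries of all 4 genotypes, whereas PRR9 was lower and TOC1 higher with ethylene in all 4. Averaged over Col-0 and rhd6rsl1, LUX was at 0.095 ± 0.052 (adjusted p = 0.16). The part of the letter in the clock genes, and of time of day in the TEM1 and RAV2 values, was not tested. Photosynthesis and shoot markers rose in 3 of 12 cases in Col-0 and in 9 of 12 in ein3eil1rhd6rsl1 and in 0 in rhd6rsl1 and ein3eil1, in step with the 2 libraries named above. Of all loci, 13.7% were called higher in Col-0 and 11.5% in ein3eil1rhd6rsl1. Without both of these libraries the calls of TEM1 and EDF3 held in every comparison in which they were called. Of 6 root markers, 0 rose and 5 fell in Col-0, against 13.7% and 15.9% of all loci, 2 rose and 2 fell in rhd6rsl1, against 18.0% and 21.5%, 0 were called in ein3eil1 and 1 rose in ein3eil1rhd6rsl1, and their part in the EDF values was not tested.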

How the data were processed

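Root polyA RNA of 16 libraries was sequenced as paired ends of 100 bases, per the labels. Alignment to TAIR10 used BWA 0.7.7, per the submitters' processing notes. For each of 39640 transcript models the deposited files hold the authors' count of reads, a model length and an RPKM value, per the file headers. The sources used here name no counting tool, strand setting or handling of shared reads. The authors' RPKM values were not used, and the deposited counts were summed over models to 33518 loci.

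The edgeR 4.0.16 quasi-likelihood F test was run under R 4.3.3 on the 8 group means, after filterByExpr and TMM scaling. Benjamini-Hochberg adjustment covered all 22304 loci tested, and calls were made at adjusted p under 0.05. The SE is the log2 fold change divided by the square root of F, and the common biological coefficient of variation was 0.0938. With 2 replicates the precision rests on the spread shared over all groups. Alternatives were median-ratio size factors, library totals, DESeq2 1.42.0, no filter, the largest model, the compared groups alone, a replicate block, each library left out and both photosynthesis-high libraries left out. Promoter windows and coordinates are from RefSeq's TAIR10.1, whose build name differs from that of the files, and 32709 loci matched it by locus tag.

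The members and lists were chosen with earlier results of these data known. Named genes were the members, list members, and the 3 loci nearest each member in group pattern. The ratio test, which permuted treatment within genotype, was added after the data had been seen.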

Additional observations from a re-analysis of the deposited data

Results flagged for a closer look

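The ethylene response differed between genotypes with and without EIN3 and EIL1, by the interaction test of edgeR, in 7 of the 8 tests made on the 4 genes. Over all loci tested, 12.2% were called in the Col-0 background, with 4.58% higher, and 17.8% in the rhd6rsl1 background, with 6.89% higher. In the Col-0 background the difference in log2 fold change was 1.94 for EDF3, 1.49 for TEM1, 1.25 for RAV2 and 0.39 for RAV1. In the rhd6rsl1 background it was 1.57 for EDF3, 1.48 for TEM1 and 0.66 for RAV2. The RAV1 difference in the Col-0 background lost its call without any of 7 single libraries, with adjusted p from 0.065 to 0.11.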

How the results depend on the processing

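For 4 genes in 15 comparisons, 24 alternatives gave 1436 values, and 0 of these reversed while called. Of the values, 1375 stayed on the same side of the threshold, 39 newly passed it and 22 no longer passed it. The 1375 include changes of direction between values that were not called. EDF3 in untreated ein3eil1 against Col-0, for example, ranged from -0.43 to 0.16 with single libraries left out. For 48 of the 60 results no alternative moved the call. The cause of the changes below was not tested.

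RAV2 with ethylene in rhd6rsl1 passed the threshold at 0.29 with median-ratio size factors, 0.32 with library totals, 0.30 without a filter, 0.31 with the largest model, 0.28 with the groups alone, 0.29 in DESeq2 and 0.30 without both photosynthesis-high libraries. EDF3 in ein3eil1rhd6rsl1 against ein3eil1 passed it at -0.34 with library totals, the largest model and the groups alone, and at -0.33 without a filter and in DESeq2. TEM1 with ethylene in ein3eil1 passed it at 0.41 without a filter and with the groups alone. TEM1 in untreated ein3eil1 against Col-0 passed it at -0.48 without a filter and with the groups alone and at -0.50 in DESeq2. EDF3 in rhd6rsl1 against Col-0 passed it at 0.25 without a filter. Calls were lost for the RAV1 dependence in the Col-0 background, at 0.35 without both photosynthesis-high libraries, for RAV2 with ethylene in ein3eil1rhd6rsl1, at -0.39 with the groups alone and -0.41 without both libraries, for RAV1 in untreated ein3eil1rhd6rsl1 against rhd6rsl1, at -0.44 with the groups alone, and for the average RAV2 response without EIN3/EIL1, at -0.33 with the groups alone.

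With single libraries left out, TEM1 ranged from -0.46 to 0.10 for ethylene in ein3eil1rhd6rsl1, from 0.32 to 0.49 for ethylene in ein3eil1, from -0.56 to -0.39 in untreated ein3eil1 against Col-0, from -0.57 to -0.00 in untreated ein3eil1rhd6rsl1 against rhd6rsl1 and from 0.06 to 0.34 in ein3eil1rhd6rsl1 against ein3eil1. RAV2 ranged from 0.26 to 0.34 for ethylene in rhd6rsl1, past the threshold when any 1 of 9 libraries of the other genotypes was left out. It ranged from -0.54 to -0.28 for ethylene in ein3eil1rhd6rsl1 and from -0.41 to -0.27 for its average without EIN3/EIL1. EDF3 ranged from -0.45 to -0.23 in ein3eil1rhd6rsl1 against ein3eil1 and from 0.13 to 0.40 in rhd6rsl1 against Col-0. RAV1 ranged from 0.35 to 0.48 for its dependence in the Col-0 background and from -0.46 to -0.39 in untreated ein3eil1rhd6rsl1 against rhd6rsl1. Where 1 library remained in a group, it was assumed to vary like the other groups.

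Replicate numbers do not pair the libraries: the deviations of same-numbered libraries correlated at -0.0799 to 0.21 over 28 pairs of groups, with 2 above 0.1. With the replicate block the RAV1 dependence in the Col-0 background was 0.39 (adjusted p = 0.052) and EDF3 in ein3eil1rhd6rsl1 against ein3eil1 was -0.33 (0.036), and no other call of the 4 genes changed.

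The background counts of called loci moved by over 1.5 times for ethylene in ein3eil1, from 139 to 523 in DESeq2, 1279 with the groups alone, 958 without a filter, 263 without both libraries and 16 to 291 with single libraries left out. Untreated ein3eil1 against Col-0 went from 1255 to 2134 with the groups alone, 1899 without a filter and 514 to 1473 with single libraries left out. Untreated ein3eil1rhd6rsl1 against rhd6rsl1 went from 965 to 604, 2084 and 463 to 3357 in the same order, and the average without EIN3/EIL1 from 1760 to 1023, 3056 and 209 to 4145. Ethylene in ein3eil1rhd6rsl1 went from 5323 to 2602 with the groups alone, 3525 without both libraries and 2745 to 6075 with single libraries left out. The three-way difference went from 68 to 130 in DESeq2, 424 without a filter and 37 to 134 with single libraries left out. Only with a single library left out, ethylene in Col-0 fell from 6609 to 4389, the dependence in the Col-0 background from 2727 to 1769 and ein3eil1rhd6rsl1 against ein3eil1 from 5030 to 3203.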
